A study of Mus musculus with 4 samples.

Results

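Usher syndrome combines congenital deafness or progressive hearing loss with blindness, and most of its genes encode parts of the links that join stereocilia, the actin-filled projections of the sensory hair bundle. Members of 1 group of Usher proteins (type 1) anchor the tip links that gate mechanotransduction, whereas those of another (type 2) build the ankle links, fine fibers at the stereocilia base of the developing bundle. Myosin VIIA works with both, and clarin-1 (type 3) is needed for the bundle to mature and be maintained.

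Expression of 7 such genes was followed here among the 23420 genes measured. The 7 were chosen by name: Myo7a, Ush1c, Ush1g, Clrn1, Pdzd7, whirlin, which the files list as Whrn, and Adgrv1, which they list under its older symbol Gpr98. All 7 were among the 16077 genes with at least 100 reads over the 12 replicates, the set that was tested.

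Cochleae came from P1 Atoh1-GFP transgenic mice on the CD1 background, in which an Atoh1 enhancer drives GFP in hair cells. All organs were cultured overnight in 5% O2 in medium with penicillin, and treated organs then received 0.5 mM gentamicin, an aminoglycoside antibiotic that kills hair cells, for 3 h. GFP+ hair cells and GFP- non-hair cells were sorted from control and treated organs, which made 4 groups of 3 replicates, each a pool of many sorted cells. The non-hair cell population was a mixture of supporting cells, other cochlear epithelium and surrounding tissue, and cells with weak GFP were gated out of both populations. Between 22399658 and 28151225 reads fell on genes in each replicate. Values are normalized read scores, which carry an added offset of 1, so that a score of 1 stands for no reads.

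The sorting labels were checked with marker genes. Summed scores, less the offset, of 8 hair cell markers were 5942–6128 in control hair cells and 26.5–45.9 in control non-hair cells. The non-hair cell sum came mostly from Pvalb, and without it the 7 other markers summed to 2.97–5.31. The 10 supporting cell markers, by contrast, were not low in the sorted hair cells. They summed to 2814–3448 in control hair cells and 2665–4883 in control non-hair cells, and single markers went either way. At an adjusted p under 0.05 with a fold change above 1.2, 3 of 10 were called higher in control hair cells. Among all tested genes 30.2% were. Lfng, a Notch pathway glycosyltransferase, was among the 3 (1.52 on the log2 scale). The 1 called lower was the matrix proteoglycan gene Epyc (-3.20), and 6569 of the 16077 tested genes were called lower. The 5 mesenchyme markers summed to 105–251 in control hair cells and 2559–4431 in control non-hair cells. In bulk samples such as these, fewer cells of a type and less RNA per cell cannot be told apart.

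All 7 genes were higher in control hair cells than in control non-hair cells at an adjusted p under 0.05 with a fold change above 1.2, and the replicates of the groups did not overlap for any of them. Among all tested genes 30.2% passed that criterion in this direction, and 34.5% did not overlap in this direction. With the offset of 1, the fold changes spanned a wide range, from 2.53 for Ush1c to 152 for Myo7a. The median log2 difference of the 7 was 4.75, against -0.12 over all tested genes, with 5% of genes above 2.21.

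**Figure D1:**
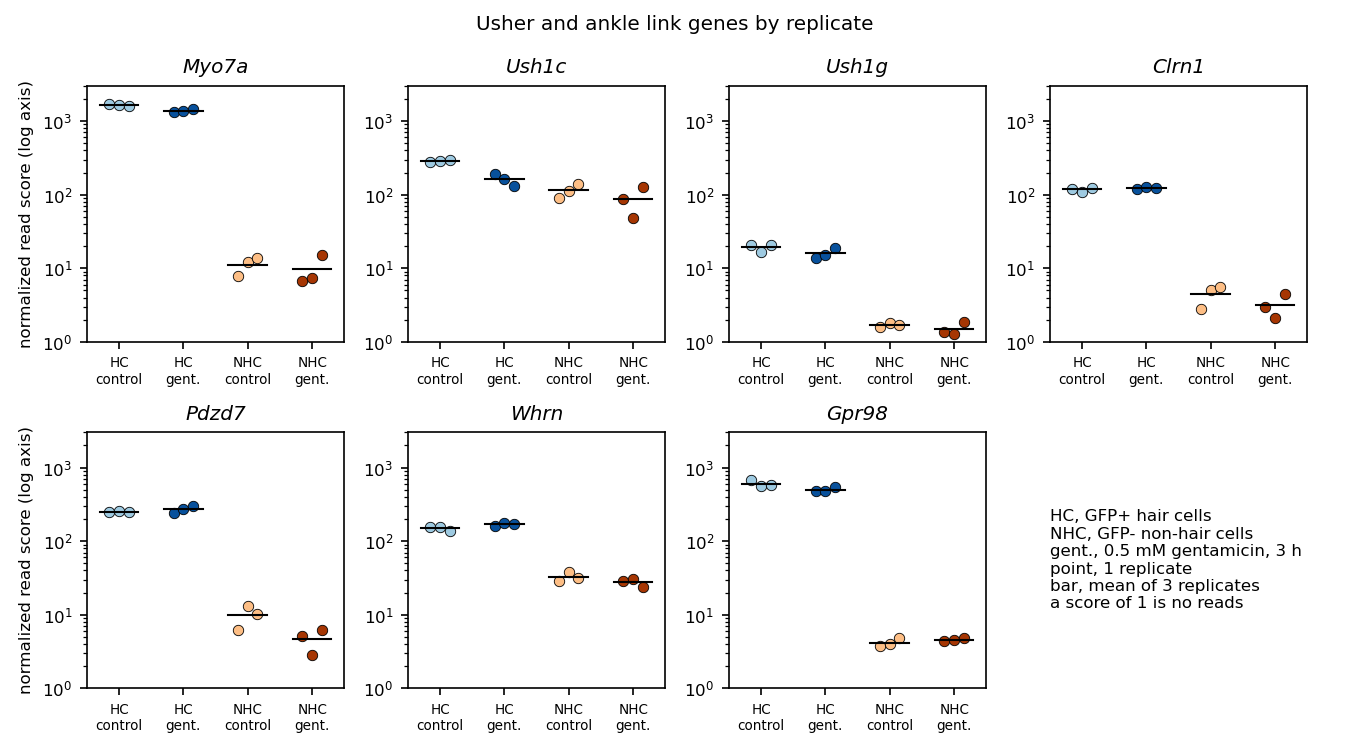
Normalized read scores of the 7 genes in each replicate, on a log axis that starts at 1 (no reads), for hair cells (HC) and non-hair cells (NHC) with and without gentamicin. Points are replicates and bars are means of 3. For each gene all control hair cell replicates lie above all control non-hair cell replicates. Treated hair cells reach into the control non-hair cell range for Ush1c alone, with replicate 3 at 129.

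Myo7a encodes the unconventional myosin that carries and tensions link components along actin, and it is a standard label of hair cells. Its scores were 1726, 1663 and 1581 in control hair cells and 7.86, 11.97 and 13.6 in control non-hair cells. On the log2 scale the difference was 7.25 ± 0.26 (SE, limma adjusted p = 6.56056e-10). Less the offset, the mean non-hair cell level was 0.613% of the hair cell level. Hair cell replicates were close to each other, with an SD of 0.063 on the log2 scale, and non-hair cell replicates, with 166–327 reads each, were more scattered, with an SD of 0.41. Per length, Myo7a was also the most abundant of the 7, at 193 ± 8.47 per kb of exon (score less offset, SD, n = 3).

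Ush1c encodes harmonin, a PDZ scaffold that anchors tip links and binds myosin VIIA. It stood apart from the rest through its signal in non-hair cells. Its scores were 276, 283 and 295 in control hair cells and 90.6, 112 and 141 in control non-hair cells. On the log2 scale the difference was 1.34 ± 0.29 (SE, limma adjusted p = 0.00121), and the non-hair cell level was 39.9% of the hair cell level (31.6–49.2% for single non-hair cell replicates). In control non-hair cells harmonin ranked above the other 6 genes per kb of exon, at 29.4 ± 6.54, whereas in control hair cells it ranked below Myo7a, at 73.8 ± 2.57.

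Ush1g encodes sans, an ankyrin repeat scaffold that joins harmonin and myosin VIIA. It had the lowest level per kb in hair cells. Its scores were 20.5, 16.4 and 20.7 in control hair cells and 1.58, 1.80 and 1.70 in control non-hair cells, where it rested on 14–20 reads per replicate. The groups did not overlap, and the log2 difference was 3.50 ± 0.17 (SE, limma adjusted p = 7.89437e-09), a value that the offset holds down at such low scores.

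Clrn1 encodes clarin-1, a small membrane protein with several membrane-spanning stretches. Its scores were 120, 110 and 123 in control hair cells and 2.82, 5.00 and 5.56 in control non-hair cells. On the log2 scale the difference was 4.78 ± 0.27 (SE, limma adjusted p = 2.80949e-08). Non-hair cell replicate 1 was the low one, as it was for each of the other 6 genes.

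Pdzd7 encodes a PDZ scaffold that holds the ankle link complex together with whirlin. Its scores were 249, 259 and 249 in control hair cells, the tightest group of any of the 7 (SD of 0.033 on the log2 scale), and 6.12, 13.2 and 10.2 in control non-hair cells. On the log2 scale the difference was 4.75 ± 0.29 (SE, limma adjusted p = 4.40883e-08). Its exons share 206 bp with Lzts2, which runs on the opposite strand. Whether the libraries kept strand is not given in the sources used here, so reads from that stretch could not be assigned to either gene. Lzts2 had the opposite pattern, with mean scores of 74.5 in control hair cells and 149 in control non-hair cells.

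Whrn encodes whirlin, a PDZ scaffold of which the long form is part of the ankle link complex and the short form sits at stereocilia tips with myosin XVA. Its scores were 157, 156 and 137 in control hair cells and 28.5, 38.2 and 31.1 in control non-hair cells. It was thus the other gene with a sizeable non-hair cell level, at 21.2% of the hair cell level (18.5–25.0% for single replicates). The log2 difference was 2.21 ± 0.11 (SE, limma adjusted p = 1.1742e-08).

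Gpr98 encodes the very large adhesion receptor whose extracellular part is a component of the ankle links. Its scores were 668, 558 and 578 in control hair cells and 3.73, 3.97 and 4.82 in control non-hair cells. On the log2 scale the difference was 7.18 ± 0.10 (SE, limma adjusted p = 8.21266e-13), nearly that of Myo7a, and the non-hair cell level was 0.528% of the hair cell level. With an offset of 0.1 in place of 1, the log2 difference was 7.53 for Gpr98 and 7.38 for Myo7a, so their order depended on the offset. Per kb of its 24878 bp of exons the hair cell level came to 24.1 ± 2.35, below that of Clrn1 (30.3 ± 1.76) and above that of Whrn (20.3 ± 1.49).

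Per kb of exon, the order in control hair cells was Myo7a, Ush1c, Pdzd7, Clrn1, Gpr98, Whrn and Ush1g, and no neighbours in this order overlapped between replicates. In control non-hair cells the order was Ush1c, Whrn, Pdzd7, Myo7a, Clrn1, Ush1g and Gpr98. There Pdzd7 overlapped with Myo7a (2.18 ± 0.872 and 1.19 ± 0.347 per kb), and Myo7a overlapped with Clrn1 (0.897 ± 0.375 per kb). The exon lengths are those of all annotated exons together, and the isoforms in use were not measured.

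The same percentage for other hair cell genes gives a scale for the non-hair cell signal. For 7 of the 8 hair cell markers it was 0.0257–0.184%, and for Pvalb it was 10.4%. The tip link cadherins Cdh23 and Pcdh15 were at 6.28% and 5.73%. Each of the 7 genes was therefore above the markers other than Pvalb, with Gpr98 and Myo7a nearest to them.

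**Figure D2:**
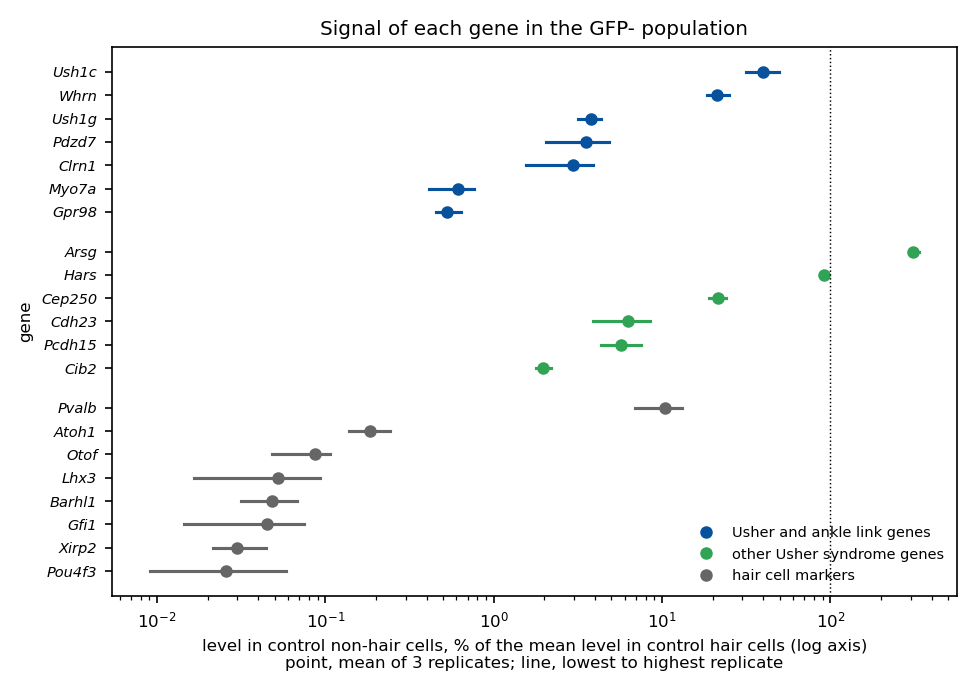
Level of each gene in control non-hair cells as a percentage of its mean level in control hair cells (score less the offset, log axis). Points are means of 3 replicates and lines run from the lowest to the highest replicate. Ush1c (39.9%) and Whrn (21.2%) lie to the right of the other 5 genes of the group, and 7 of the 8 hair cell markers lie below 0.2%.

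RefSeq start regions were available for 6 of the 7 genes, and Ush1g was not among them. They are shown because the 6 range from almost no non-hair cell signal (Myo7a, Gpr98) to a sizeable one (Whrn, Ush1c). Coordinates are those of GRCm38.p6 (the mm10 assembly), sequences run 5′ to 3′ toward the start site, and bases downstream of the GENCODE gene start were left off. Capitals mark matches to the searched letters.
Myo7a (chr7:98119525-98119743, minus strand): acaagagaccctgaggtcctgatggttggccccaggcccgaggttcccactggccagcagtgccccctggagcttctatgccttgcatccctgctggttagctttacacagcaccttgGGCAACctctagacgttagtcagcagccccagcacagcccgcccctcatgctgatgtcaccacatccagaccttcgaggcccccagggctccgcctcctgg
Gpr98 (chr13:81633155-81633394, minus strand): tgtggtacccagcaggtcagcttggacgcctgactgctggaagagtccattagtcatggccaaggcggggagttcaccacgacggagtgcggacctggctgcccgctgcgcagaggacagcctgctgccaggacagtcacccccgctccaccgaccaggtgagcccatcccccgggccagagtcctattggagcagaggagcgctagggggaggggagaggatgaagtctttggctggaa
Clrn1 (chr3:58885341-58885462, minus strand): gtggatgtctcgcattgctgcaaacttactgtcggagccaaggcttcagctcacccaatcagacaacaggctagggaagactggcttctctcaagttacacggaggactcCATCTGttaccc
Pdzd7 (chr19:45045773-45046022, minus strand): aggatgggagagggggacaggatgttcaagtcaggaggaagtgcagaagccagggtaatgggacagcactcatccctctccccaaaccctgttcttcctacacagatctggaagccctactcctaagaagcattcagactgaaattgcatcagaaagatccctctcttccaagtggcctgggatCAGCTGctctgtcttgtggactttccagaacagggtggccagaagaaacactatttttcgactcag
Whrn (chr4:63495992-63496241, minus strand): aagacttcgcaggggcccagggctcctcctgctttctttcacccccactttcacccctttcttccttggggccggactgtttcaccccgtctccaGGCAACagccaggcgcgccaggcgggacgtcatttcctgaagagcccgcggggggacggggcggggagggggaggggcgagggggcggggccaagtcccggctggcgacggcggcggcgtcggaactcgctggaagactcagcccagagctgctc
Ush1c (chr7:46238504-46238740, minus strand): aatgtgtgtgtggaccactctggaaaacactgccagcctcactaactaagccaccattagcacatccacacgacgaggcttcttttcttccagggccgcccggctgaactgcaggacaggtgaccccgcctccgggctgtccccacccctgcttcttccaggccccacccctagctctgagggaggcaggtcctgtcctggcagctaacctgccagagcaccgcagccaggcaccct

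The searched letters, on both strands over the full 250 bases before the RefSeq start, were CAGCTG and CAGATG, which are E-boxes of the kind that Atoh1 binds, GTTGCC, the half-site of RFX factors, and ATTAAT, a core of POU4F3 sites. These letters do not overlap with each other in any match shown. CAGCTG was found in Pdzd7 alone (13% of all 32851 RefSeq promoters hold it), and CAGATG, as its reverse complement, in Clrn1 alone (14.4% of all promoters). GTTGCC, as its reverse complement, was in Myo7a and Whrn (10.4% of all promoters), and ATTAAT was in none of the 6 (4.39% of all promoters). Ush1c and Gpr98 held none of these letters. GC content was 61.2–69.6% in Ush1c, Myo7a, Gpr98 and Whrn, and lower in Pdzd7 (50.8%) and Clrn1 (46.4%). Myo7a has a second RefSeq start further 3′, without a match in its 250 bases.

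The question of the drug arm was how hair cells respond to gentamicin before they die. A gene was called changed if its fold change was above 1.2 and its p, before adjustment, was under 0.01, the cutoffs of the study. The test was not that of the study, which used the gene specific analysis of PartekFlow. Here p came from limma with all 4 groups in 1 fit. By that rule 0 of the 7 genes changed in hair cells, whereas 27.5% of all tested genes did. At an adjusted p under 0.05, which 33.2% of all tested genes reached (18.4% with a lower score), 1 of the 7 passed, and this was Ush1c, with a lower score. The 7 log2 changes lay between -0.83 and 0.17, with a median of -0.26 against -0.09 over all tested genes.

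Ush1c scores were 193, 163 and 129 in treated hair cells, against 276, 283 and 295 in control hair cells. Every treated replicate was below every control. The log2 change was -0.83 ± 0.29 (SE, 95% interval -1.46 to -0.20, limma adjusted p = 0.0441), a 1.78-fold lower score. Ush1c met the study's cutoffs when the hair cell groups were fitted alone, without the more scattered non-hair cells (limma adjusted p = 0.00309). The adjusted p rose above 0.05 with scaling by total reads (0.0747), with every gene of at least 1 read tested (0.0583), and when any hair cell replicate other than gentamicin replicate 1 was left out (0.0874–0.138). The log2 change kept its sign in each of these fits.

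Since harmonin signal was also present in non-hair cells, the supporting cell markers were set beside it. Their summed level in hair cells was 2940, 2814 and 3448 in controls and 2093, 1270 and 2743 after gentamicin, so that the groups did not overlap. All 10 markers had estimates below 0 in hair cells with a median log2 change of -0.77, and 3 of 10 were called lower, against 14.8% of all tested genes: Lfng (-1.17), Epyc (-0.89) and the gap junction gene Gjb2 (-0.77). Within treated hair cells the markers were lowest in replicate 2 and highest in replicate 3, whereas Ush1c was lowest in replicate 3. The part of these markers in the Ush1c difference was not tested. For markers of other populations, 4 of 4 Schwann cell, 4 of 4 endothelial and 5 of 5 mesenchyme markers also had estimates below 0 in hair cells, with 2, 1 and 1 called lower. Of 3 melanocyte markers 2 were below 0, with 1 called lower, whereas 3 of 4 macrophage and 2 of 2 red blood cell markers were above 0, with 0 called.

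**Figure D3:**
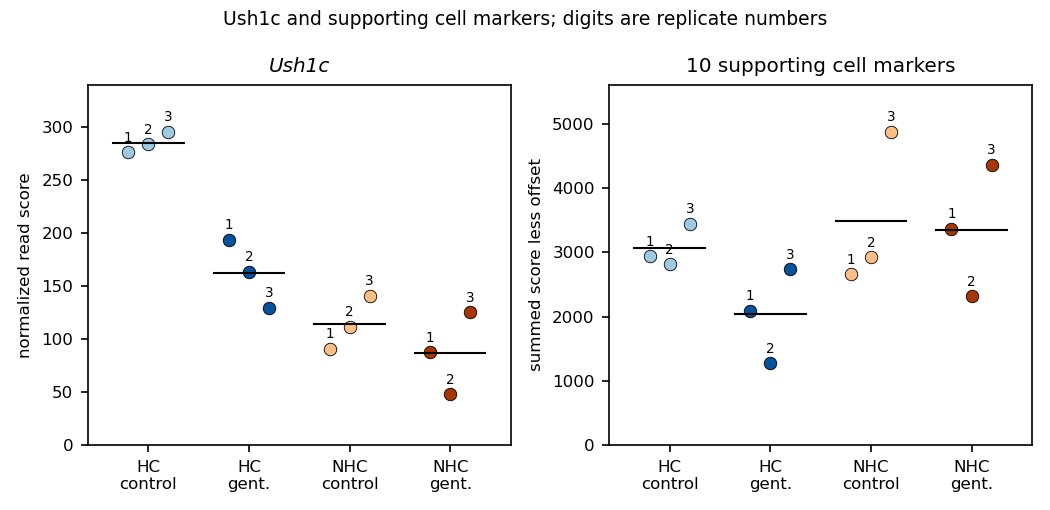
Ush1c score (left) and the summed level of 10 supporting cell markers (right) in each replicate of the 4 groups, with both axes starting at 0. Points carry the replicate number and bars are means of 3. Both were lower in treated hair cells than in control hair cells. Among treated hair cells, replicate 3 was lowest for Ush1c (129) and highest for the markers (2743). The part of the markers in the Ush1c difference was not tested.

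Myo7a scores were 1315, 1387 and 1452 in treated hair cells, below all control replicates (1581–1726). The log2 change was -0.26 ± 0.26 (SE, limma adjusted p = 0.485), and its 95% interval ran from -0.84 to 0.32. This interval draws on the scatter of Myo7a between non-hair cell replicates, which share the fit. With hair cells fitted alone, the limma adjusted p was 0.0798, and the fold change of 1.197 was just under the threshold in either fit.

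Gpr98 scores were 475, 488 and 542 in treated hair cells, below all control replicates (558–668). The log2 change was -0.26 ± 0.10 (SE, limma adjusted p = 0.0771), with a 95% interval of -0.49 to -0.03. Myo7a, Ush1c and Gpr98 were thus the 3 of 7 genes with all treated below all control hair cell replicates, which 33.1% of all tested genes were.

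For Whrn the order was the reverse. Its scores were 162, 174 and 170 in treated hair cells, above all control replicates (137–157), which holds for 21.7% of all tested genes. The log2 change was 0.17 ± 0.11 (SE, limma adjusted p = 0.268), with a 95% interval of -0.08 to 0.42. Its scaffold partner Pdzd7 was at 244, 273 and 300 in treated hair cells, around its control values of 249–259. The log2 change was 0.11 ± 0.29 (SE, limma adjusted p = 0.809), with a 95% interval of -0.53 to 0.74. As for Myo7a, this interval draws on the scatter between non-hair cell replicates. With hair cells fitted alone, the limma adjusted p for Pdzd7 was 0.319.

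Clrn1 scores were 118, 128 and 125 in treated hair cells and overlapped with the controls (110–123), with a log2 change of 0.07 ± 0.27 (SE, limma adjusted p = 0.876, 95% interval -0.53 to 0.67). Ush1g scores were 13.9, 15.4 and 18.6 and overlapped with the controls (16.4–20.7), with a log2 change of -0.27 ± 0.17 (SE, limma adjusted p = 0.247, 95% interval -0.65 to 0.11). For neither gene was a change detectable. The Ush1g interval leaves room for a downward change above the 1.2-fold threshold. The Clrn1 interval passes that threshold in either direction, but it draws on the scatter between replicates in non-hair cells. There the SD was 0.53 in control and 0.55 in treated replicates on the log2 scale, against 0.084 and 0.059 in hair cells. It is therefore not a measure of hair cells alone. With hair cells fitted alone, the limma adjusted p for Clrn1 was 0.418.

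In non-hair cells 1 of the 7 genes met the criteria, with a lower score, and 5.44% of all tested genes did (2.26% with a lower score). At an adjusted p under 0.05 the count was 0 of 7, against 0.342% of all tested genes, and 0 of 7 had groups that did not overlap, against 17.8% of all tested genes. The gene called was Pdzd7, with scores of 5.10, 2.86 and 6.20 after gentamicin against 6.12, 13.2 and 10.2 in controls. The groups touched, since the highest treated replicate lay above the lowest control. The log2 change was -1.06 ± 0.29 (SE, limma adjusted p = 0.115), on 51–148 reads per treated replicate and 124–307 per control. The call was lost when the non-hair cell groups were fitted alone (limma adjusted p = 0.425). It was also lost without control replicate 2 (log2 change -0.82), without control replicate 3 (-0.999) or without gentamicin replicate 2 (-0.74). Its overlapping neighbour Lzts2 was not called in non-hair cells (log2 change 0.08 ± 0.10 SE, limma adjusted p = 0.722).

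The few hair cell transcripts in the non-hair cell samples were set beside Pdzd7. The summed level of the 8 hair cell markers was 26.5, 45.9 and 37.1 in control and 20.2, 11.1 and 38.8 in treated non-hair cells, in the same replicate order as Pdzd7. Pvalb made up most of this sum, and its own log2 change was -1.02 ± 0.35 (SE, limma adjusted p = 0.185). Without Pvalb the sums were 5.00, 5.31 and 2.97 in controls and 4.10, 3.94 and 11.9 after gentamicin. The part of these markers in the Pdzd7 difference was not tested.

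The other 6 genes were not called in non-hair cells. Ush1c scores were 87.3, 48.1 and 125 after gentamicin, against a control range of 90.6–141, so that 2 of the 3 lay below it, with a log2 change of -0.48 ± 0.29 (SE, limma adjusted p = 0.419). Myo7a was at 6.72, 7.45 and 14.9, Clrn1 at 2.93, 2.11 and 4.51, and Ush1g at 1.35, 1.29 and 1.88, each overlapping with its controls. Whrn was at 28.4, 30.5 and 24.2, with a log2 change of -0.23 ± 0.11 (SE, limma adjusted p = 0.323). Gpr98 was the exception in sign, at 4.40, 4.57 and 4.80 with a log2 change of 0.14 ± 0.10 (SE, limma adjusted p = 0.508).

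Non-hair cells had the larger SD of log2 scores for 6 of 7 genes without the drug, with Ush1g as the exception, and for 6 of 7 with it, with Gpr98 as the exception. Control replicate 1 had the lowest score for 7 of 7 genes, and gentamicin replicate 3 had the highest for 6 of 7. Supporting cell markers followed a like order, with sums of 2665, 2927 and 4883 in controls and 3372, 2317 and 4364 after gentamicin. Mesenchyme markers ran against it, at 4431, 3505 and 2559 in controls and 4768, 6679 and 3068 after gentamicin. Without gentamicin replicate 3, 4 of the 7 genes were called lower in non-hair cells (Myo7a -0.62, Ush1c -0.80, Clrn1 -0.78 and Pdzd7 on the log2 scale). In that fit 839 of the 16077 tested genes were called lower, against 363 with the replicate kept. In either direction 1570 genes were called, against 875. Without control replicate 1, Clrn1 (-0.80) was called beside Pdzd7, in a fit where 760 of the 16077 tested genes were called lower. The part of these markers in the differences was not tested.

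**Figure D4:**
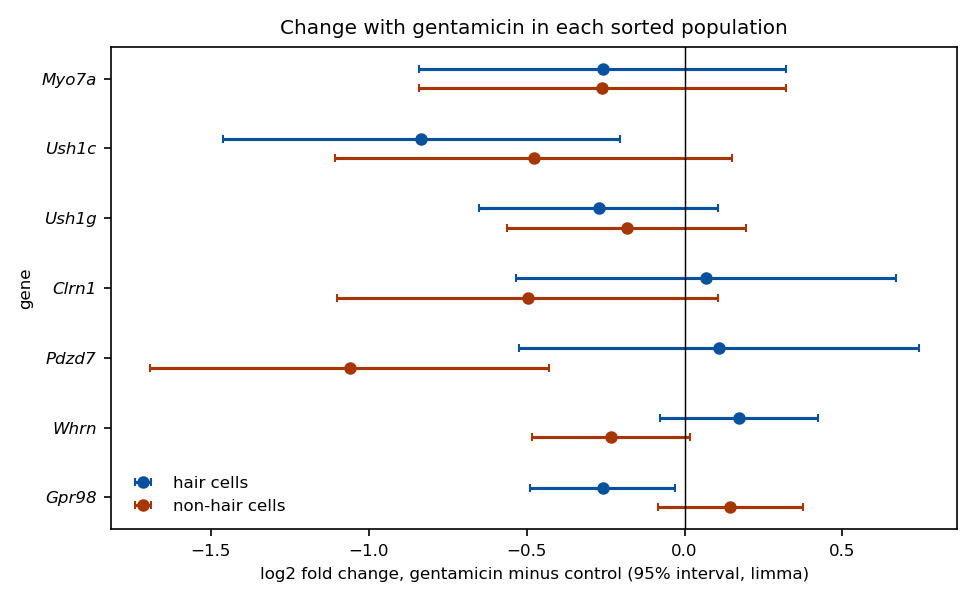
Log2 fold change with gentamicin for the 7 genes in hair cells (blue) and non-hair cells (brown), with 95% intervals from limma. The interval lies below 0 for Ush1c and Gpr98 in hair cells and for Pdzd7 in non-hair cells.

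The gentamicin effects of the populations were compared directly as an interaction, called at an adjusted p under 0.05. By that test 0 of the 7 genes differed, and 13.4% of all tested genes did. For Pdzd7, Whrn and Gpr98 the 95% interval of the difference did not include 0. How many of all tested genes share this looser property was not counted. Pdzd7 had a difference of 1.17 (hair cell change minus non-hair cell change, 95% interval 0.27 to 2.06, limma adjusted p = 0.0801). For Whrn it was 0.40 (interval 0.05 to 0.76, limma adjusted p = 0.117), and for Gpr98 it was -0.40 (interval -0.73 to -0.08, limma adjusted p = 0.0917). Pdzd7 passed without non-hair cell control replicate 1 (limma adjusted p = 0.0249) or gentamicin replicate 3 (0.039), and Gpr98 without non-hair cell control replicate 3 (limma adjusted p = 0.0304). For Ush1c, the interval of the difference was -1.24 to 0.53, so that its lower hair cell score was not shown to be particular to hair cells.

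Members of the group were also set against each other replicate by replicate, after subtraction of each group's mean log2 score. Across the 6 hair cell replicates, the median Pearson r over the 21 gene pairs was 0.36, with 13 of 21 above 0. Ush1c was at odds with the other genes there, with r between -0.96 (Pdzd7) and -0.27 (Clrn1). Among treated hair cells, replicate 1 had the lowest score for the other 6 genes and the highest for Ush1c (193), so 1 library weighs on these values. Across the 6 non-hair cell replicates the median was 0.68, and Whrn was the gene at odds, with r between -0.44 (Ush1c) and 0.11 (Pdzd7). These points share libraries and scaling, and are given as a description.

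Other genes of Usher syndrome were examined for comparison. Of 6 such genes, 4 were called higher in control hair cells, as were 30.2% of all tested genes. Hars was not called and Arsg was lower. In hair cells 1 of 6 was called lower with gentamicin and 0 higher, where 14.8% of all tested genes were called lower. Cib2, a calcium-binding protein of the transduction complex, had scores of 843, 804 and 764 in control and 660, 664 and 646 in treated hair cells. Its log2 change was -0.29 ± 0.08 (SE, limma adjusted p = 0.0144).

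The tip link cadherins are the anchorage partners of harmonin and sans. Cdh23 had scores of 866, 819 and 776 in control and 567, 568 and 590 in treated hair cells, with no overlap. It was not called, with a log2 change of -0.51 ± 0.38 (SE, limma adjusted p = 0.326), in a fit shared with non-hair cell replicates that ran from 19.5 to 70.7. Pcdh15 was at 217, 187 and 215 in control and 188, 172 and 206 in treated hair cells, which overlapped (log2 change -0.13, limma adjusted p = 0.625). In non-hair cells the calls were 2 of 6, both higher, against 3.18% of all tested genes: Arsg, a lysosomal sulfatase (log2 change 0.48 ± 0.12 SE, limma adjusted p = 0.0935), and the histidyl-tRNA synthetase gene Hars (0.29 ± 0.08 SE, limma adjusted p = 0.114).

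Among 10 genes for proteins that bind members of the group, all 10 estimates in hair cells were below 0, with a median log2 change of -0.34, and 4 of 10 were called lower, against 14.8% of all tested genes. The supporting cell, endothelial and mesenchyme markers also had estimates below 0 in these samples, as given above, and their part in these differences was not tested. Adcy6, an adenylyl cyclase found at ankle links, changed by -0.48 ± 0.15 (SE, limma adjusted p = 0.0334). Dock4, a harmonin partner, changed by -0.47 ± 0.12 (SE, limma adjusted p = 0.0138), and Magi2, which binds sans, by -0.36 ± 0.11 (SE, limma adjusted p = 0.0292). Vezt encodes vezatin, a membrane protein of the ankle links that binds myosin VIIA, and it changed by -0.27 ± 0.07 (SE, limma adjusted p = 0.0113). Adcy6, Dock4, Magi2 and Vezt each had a higher mean score in control non-hair cells (20.6–181) than in control hair cells (16.2–117), although Dock4 and Vezt did not meet the criteria for that difference. In non-hair cells 0 of these 10 genes were called. Vezt had a p under 0.01 there before adjustment, but its log2 change of -0.21 was under the fold threshold.

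**Figure D5:**
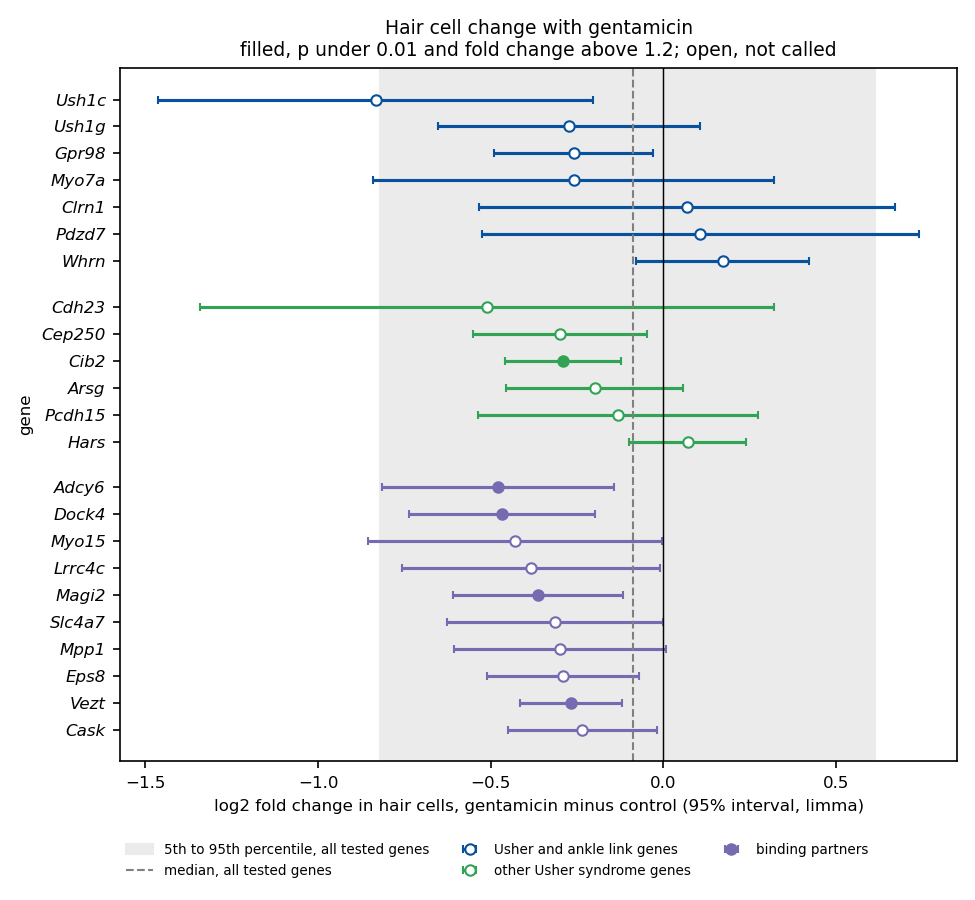
Log2 fold change with gentamicin in hair cells, with 95% intervals from limma, for the 7 genes (blue), 6 other Usher syndrome genes (green) and 10 binding partners (purple). The grey band spans the 5th to 95th percentile of all 16077 tested genes and the dashed line is their median (-0.09). Filled points met the study's cutoffs in the limma fit of all 4 groups: 0 of 7, 1 of 6 and 4 of 10.

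The intestinal relatives of these proteins form links between brush border microvilli, and they were examined too. Myo7b, Anks4b, Cdhr2 and Cdhr5 had at most 10 reads in any replicate, and Clrn3 had 0 reads in all 12, so none of them was tested. Clrn2, a relative of clarin-1, was the member of that list with signal. Its scores were 13.6, 11.9 and 14.6 in control and 14.3, 16.0 and 16.4 in treated hair cells, and it had at most 9 reads in any non-hair cell replicate. It was higher in control hair cells by 3.63 ± 0.13 on the log2 scale (SE, limma adjusted p = 6.38359e-10) and was not called with gentamicin (log2 change 0.22, limma adjusted p = 0.223).

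The genes with the pattern most like each of the 7 were found by Pearson r of log2 scores over the 12 replicates, which mainly reflects the step between hair cells and non-hair cells. Nearest to Myo7a was Slc8a2 (r = 0.9995), followed by Prkaa2 and the actin bundler Fscn2. Nearest to Gpr98 were Grk1, Gtpbp1 and Gipc3 (r = 0.9994–0.9995). Clrn1 had Cbln1, Elmod1 and St8sia3, Pdzd7 had Srrm4, Hrk and Fcho1, and Ush1g had Sec22c, Prkaa2 and Slc8a2, with r of 0.998 or above. Whrn had Vps13c, Plekho1 and Baiap2l2 (r = 0.9959–0.9977). Ush1c, the gene with the smallest step, had the least close neighbours, Inha, Ttll10 and Ctf1 (r = 0.98–0.991).

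All 7 genes are protein-coding and lie on the minus strand of the mm10 assembly in GENCODE M21. Ush1c (chr7:46195350-46238503) and Myo7a (chr7:98051060-98119524) share chromosome 7. Gpr98 (chr13:81095068-81633154) is the longest of the 7. Whrn is at chr4:63414910-63495991, Clrn1 at chr3:58844028-58885340 and Pdzd7 at chr19:45026906-45045717. Ush1g (chr11:115315192-115322041) is the shortest. Exons of Ush1c share 120 bp with Gm9860, on the opposite strand, which is not among the genes analysed here. Reads were counted over each gene as a whole, so isoforms such as the long and short forms of whirlin were not told apart.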

How the data were processed

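Single-end reads of 50 bp were trimmed and mapped to mm10 by the authors (TopHat 2, PartekFlow). The deposited value is a normalized score per gene, with 1 added, in 3 replicates of each group. Their methods describe RPKM, but the deposited scores are not divided by gene length. Each score less the offset, divided by the replicate's smallest step, gave reads, which were whole within 0.1 read for 82.9–83.9% of values up to 20 reads. The scaling factor is not given in the sources used here.

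Log2 scores were fitted with limma 3.58.1 (trend, two-sided, all 4 groups in 1 model) in R 4.3.3, for 16077 genes with at least 100 reads in all, and adjusted by Benjamini-Hochberg over these genes. Other tables were made with Python 3.11.15, numpy 2.4.6 and pandas 2.3.3. The procedure was tested on simulated data. Levels per kb use the exon lengths of GENCODE M21. Every member was named, as were called genes of the lists (up to 4 for each, largest change first), genes at 0 and the 3 most alike genes. Cdh23, Pcdh15, Pvalb and the uncalled Lzts2 and Clrn2 were named after their values were seen. A gene of the comparison lists is not reported here. The members and lists were chosen with earlier results of these data known. Replicate numbers come from the column names. Same-numbered control hair cell and non-hair cell replicates deviated together (r of 0.20–0.32). For treated hair cell and non-hair cell replicates r was 0.38, -0.04 and -0.02. Same-numbered control and treated replicates did not deviate together in hair cells (0.037–0.052). In non-hair cells their r was mixed, from -0.23 to 0.68, against -0.75 to 0.57 for differently numbered ones. An exact permutation test of 3 against 3 cannot go below a two-sided p of 0.1, so none is given. Nothing states how many animals each replicate pooled, and p-values measure the spread between replicates as deposited. Alternatives tried were TMM and total-read scaling, an offset of 0.1, minima of 1 and 1000 reads, the replicate block, fits of the compared groups only, leaving out each replicate and an adjusted p threshold.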

Additional observations from a re-analysis of the deposited data

Results flagged for a closer look

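The gentamicin effects of hair cells and non-hair cells differed, by the limma interaction at an adjusted p under 0.05, for 1 of the 6 other Usher syndrome genes, 1 of the 10 binding partners and 0 of the 7 Usher and ankle link genes themselves, against 13.4% of all tested genes, so that these counts are near the background. For Arsg the difference was -0.68 (hair cell change minus non-hair cell change on the log2 scale, adjusted p = 0.0222 by limma). Non-hair cell scores were 16.1–18.3 without and 21.1–27.1 with the drug, against 6.04–6.43 and 5.10–5.60 in hair cells. For Dock4 the difference was -0.60 (adjusted p = 0.0422 by limma). Hair cell scores were 33.8–37.8 without and 22.3–29.0 with the drug, against 36.8–40.7 and 36.8–48.3 in non-hair cells. Groups of 3 were not examined for outlying samples.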

How the results depend on the processing

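Of 413 recomputed gene values, 388 kept their direction and side of the threshold. All 7 genes stayed higher in control hair cells in all alternatives. In hair cells 1 gene (Ush1c) was called, in place of 0, at an adjusted p under 0.05 or with the compared groups fitted alone, and 0 in each fit that left out 1 replicate. In non-hair cells 0 were called, in place of 1, under those same settings, and 0 to 4 with 1 replicate left out. For the interaction that range was 0 to 1.

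The number of genes called in non-hair cells was 875, 55 by adjusted p, 383 with the compared groups alone and 411–1570 with 1 replicate left out. For the interaction it was 2158, with 1163–2378 on leaving out 1. Scaling by total reads changed the split of hair cell calls from 2037 higher and 2381 lower to 2774 and 1591, that of non-hair cells from 512 and 363 to 634 and 282, and that of the interaction from 1102 and 1056 to 1500 and 716. TMM moved the median of all genes between control populations from -0.12 to -0.01.

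Uncalled interactions near 0 changed sign: Myo7a with TMM scaling (-0.00529) and on leaving out 1 replicate (-0.22 to 0.36), and Ush1g with an offset of 0.1 (0.21) and on leaving out 1 (-0.20 to 0.0805). The cause was not tested. The replicate block changed the call of none of the 7 genes. With it, 4618 genes were called in hair cells, 878 in non-hair cells, 2306 for the interaction and 11509 between control populations. The count test on recovered reads was not run, because too few low values came out whole. Ush1g, Clrn1 and Gpr98 rested on 8–118 reads per replicate in non-hair cells, and Pdzd7 on 51–307.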
